A study of Mus musculus with 9 samples.

Results

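Sialyl-, galactosyl- and fucosyltransferases, together with the N-acetylhexosaminyltransferases that build the chains they cap, were represented by 60 of the 18329 genes measured in mouse neuroglial progenitors of the TVZ, the zone along the third ventricle of the brain where such cells divide. The genes were taken by symbol, as every gene named St3gal, St6gal (which takes in St6galnac), St8sia, B3gal, B3gn, B4gal, Galnt, Mgat or Fut with its number, and the rule uses symbols and no measured value. All cells came from untreated Nestin-CFPnuc mice kept on a C57/BL6 background and harvested on postnatal day 1, whose reporter, nuclear cyan fluorescent protein (CFP), is under the Nestin promoter. Sorting used CFP together with CD133 (a membrane protein, gene Prom1) and gave CD133+Nestin+, Nestin+ and CD133+ cells, with 3 libraries of total RNA each, so that the Nestin+ gate reports activity of the promoter and not the Nestin protein. The labels do not say whether the cells named for 1 marker lacked the other, nor whether libraries came from separate animals, so the p-values weigh differences only against the spread among these libraries, which may be technical. The study asked how isolated progenitors differ at the molecular level, and the 3 pairwise comparisons address that for these enzymes.

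Most of these enzymes sit in the Golgi apparatus and add 1 sugar at a time to proteins and lipids on their way to the cell surface. The Galnt enzymes start mucin-type O-glycans on serine and threonine, and most Mgat enzymes set the number of branches of N-glycans. Many B3gal, B3gn and B4gal enzymes extend these or other sugar chains. Sialyltransferases and some fucosyltransferases cap the ends. St8sia2 and St8sia4 build polysialic acid on the neural cell adhesion molecule, a chain that loosens contacts between migrating neural precursors. Fut9 makes the Lewis X (CD15, SSEA-1) structure that marks neural stem and progenitor cells.

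The summed level of the family was alike in the 3 populations, within the spread of the libraries. Summed over the 60 genes, the level was 1208 ± 113 CPM in CD133+Nestin+ cells, 1276 ± 118 CPM in Nestin+ cells and 1261 ± 92.2 CPM in CD133+ cells (SD, n = 3 each, as for all means here; CPM are reads scaled to the total of the library). All 60 genes passed the filter on low values, of at least 1 CPM in at least 3 libraries, 49 reached 1 CPM in every library and 41 averaged at least 10 CPM. Levels of different genes can be set side by side only per kilobase of exon, and on that scale the highest means over all 9 libraries were 14.4 CPM per kilobase for Galnt16, which starts O-glycans, 14.1 for Mgat1, which adds the first branch of complex N-glycans, 13 for B4galt1, which adds galactose to N-acetylglucosamine, and 12.5 for B3gnt4. The value of B3gnt4 is uncertain, since 93.2% of its exon bases are also exon of Diablo on the other strand. Galnt17 was lowest at 0.0992 CPM per kilobase, next to B3gnt2 at 0.19 and B3galt2 at 0.278. By group mean, 12 genes were highest in CD133+Nestin+ cells, 25 in Nestin+ cells and 23 in CD133+ cells.

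**Figure D1:**
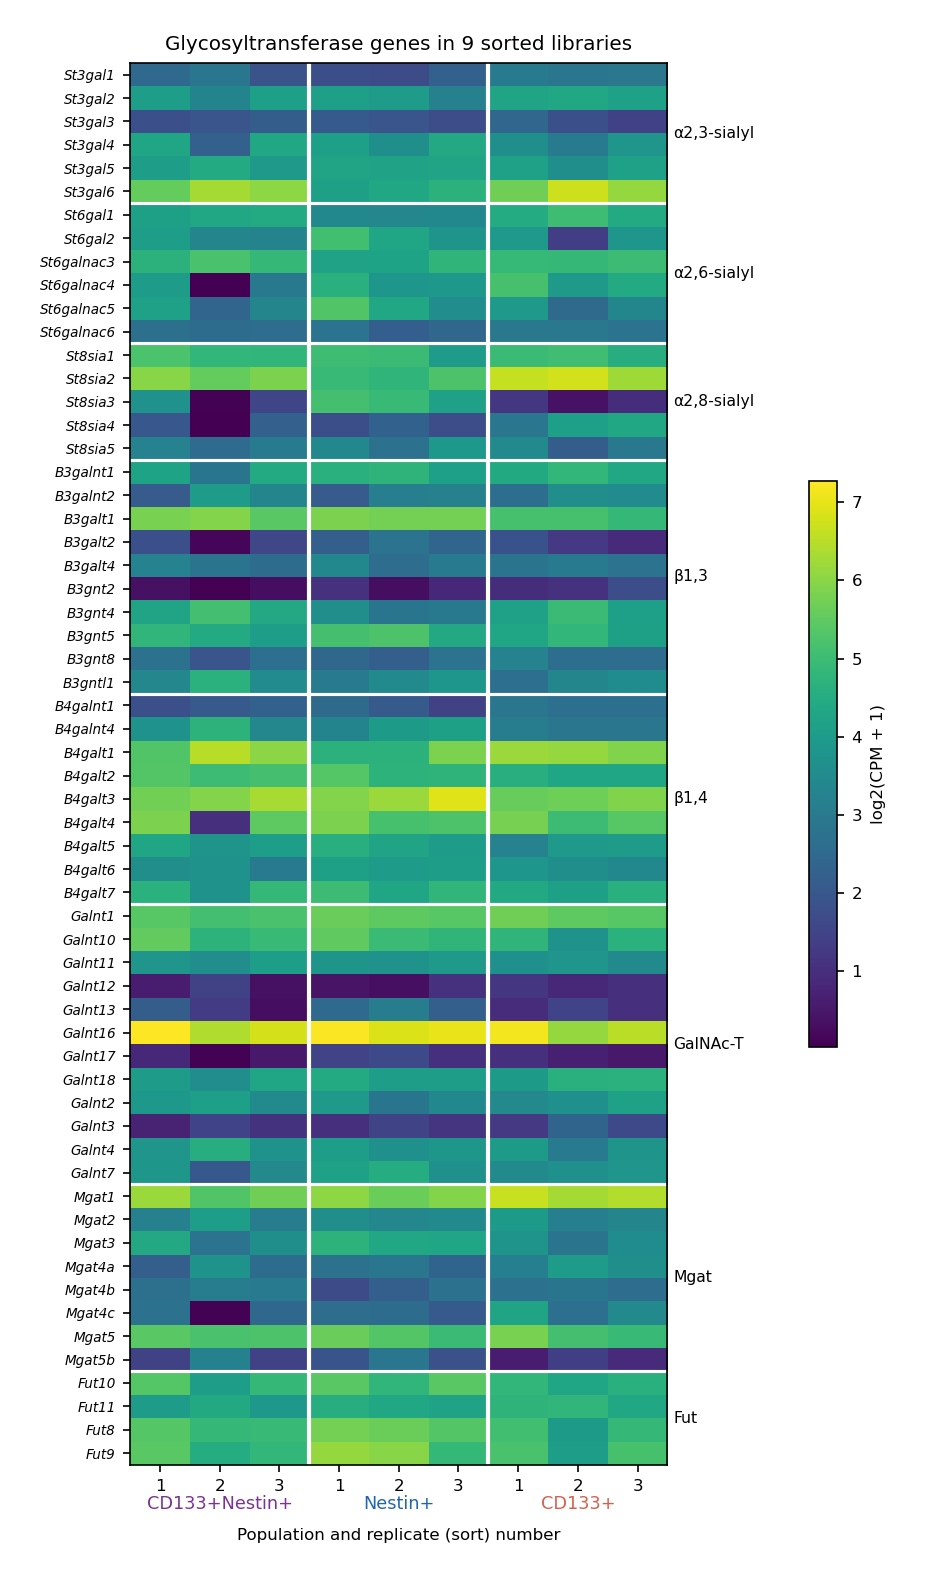
Level of each of the 60 genes in each of the 9 libraries, as log2(CPM + 1) on the colour scale. Genes are grouped by enzyme class down the page, with libraries across. St8sia3 is higher in the 3 Nestin+ libraries than in the others, and CD133+Nestin+ replicate 2 is low for several genes in different classes.

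Prom1 was at 116 to 181 CPM in CD133+Nestin+, 39.3 to 58.1 CPM in Nestin+ and 146 to 182 CPM in CD133+ libraries, and Nes, the gene of Nestin, was at 172 to 212 CPM in CD133+Nestin+, 157 to 195 CPM in Nestin+ and 39.5 to 57.3 CPM in CD133+ libraries, so the levels followed the gates while neither gene was at 0 in any library. One read corresponded to 0.0286 to 0.0344 CPM, so 3 reads to 0.0857 to 0.103 CPM. CD133+Nestin+ replicate 2 stood apart, with a second principal component score of 108 against -57.1 to 19.3 in the other 8 libraries. In that library 7 of the 60 genes (Mgat4c, St6galnac4, St8sia3, St8sia4, B3galt2, B3gnt2 and Galnt17) were at or below 3 reads, a level reached by none of the 60 in any other library, and 2.88% of all tested genes were that low there against 0.0619% to 0.991% elsewhere. The calls of comparisons that use it are given with and without it. In these bulk samples fewer cells of a type and less RNA per cell cannot be told apart.

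In Nestin+ against CD133+ cells, 5 of the 60 genes passed the test (limma, adjusted p under 0.05 over 16143 genes): St8sia3 was higher in Nestin+ cells, and St8sia2, St3gal6, St6gal1 and B3gnt4 were lower. The background was 11.9% of all tested genes (2.45% higher and 9.42% lower in Nestin+ cells). In this fit the share of these enzymes called, 8.33%, was no larger than that of genes at large. Their median log2 difference was 0.03, beside -0.02 over all genes. With the sort number of the library as a block, 14 were called, 23.3% of the 60 against a background of 19.2%. Of these 8 were higher (13.3% against 6.06%) and 6 lower (10% against 13.1%). Each number is also a passage number in the labels, so sort and passage cannot be told apart. Leaving out CD133+Nestin+ replicate 2, which enters through the shared estimate of the spread, gave 11 calls, 5 higher and 6 lower, where 17.3% of all genes were called. The 3 libraries of each group did not overlap for 28 genes, 46.7% of the 60 beside 33% of all genes. Of these 15 were higher in Nestin+ cells (25% against 11.8%) and 13 lower (21.7% against 21.1%). In total the shares with the block and by overlap were above the background, and that excess was not tested.

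None of the 60 passed the test in CD133+Nestin+ against CD133+ cells, where 2.42% of all genes did (0.297% higher and 2.12% lower), and 9 were at an unadjusted p under 0.05 against 12.6% of all genes. The block called 2 genes, St8sia4 and Mgat1, both lower in CD133+Nestin+ cells, with a background of 4.81% (1.12% higher and 3.69% lower). Groups were apart for 12 genes, 4 higher and 8 lower, beside 17.5% of all (6.56% and 10.9%). St3gal6 was the single gene to pass in CD133+Nestin+ against Nestin+ cells, higher in CD133+Nestin+ cells, where 3.13% of all genes did (2.87% higher and 0.254% lower). The block called 3, St3gal6 and B3gnt4 higher and St8sia3 lower, with a background of 6.09% (4.97% higher and 1.12% lower). Groups were apart for 9 genes, 4 higher and 5 lower, beside 17.3% of all (11.1% and 6.21%). Without CD133+Nestin+ replicate 2 the counts were 0 and 0, against a background of 2.28% and 2.79% of all genes; leaving out CD133+Nestin+ replicate 1 gave 2 and 4, against 2.94% and 4.12%. The median log2 difference of the 60 was 0.01 in CD133+Nestin+ against CD133+ cells, beside -0.06 over all genes, and -0.14 in CD133+Nestin+ against Nestin+ cells, beside -0.04. The comparisons share libraries in pairs and are not independent of each other.

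**Figure D2:**
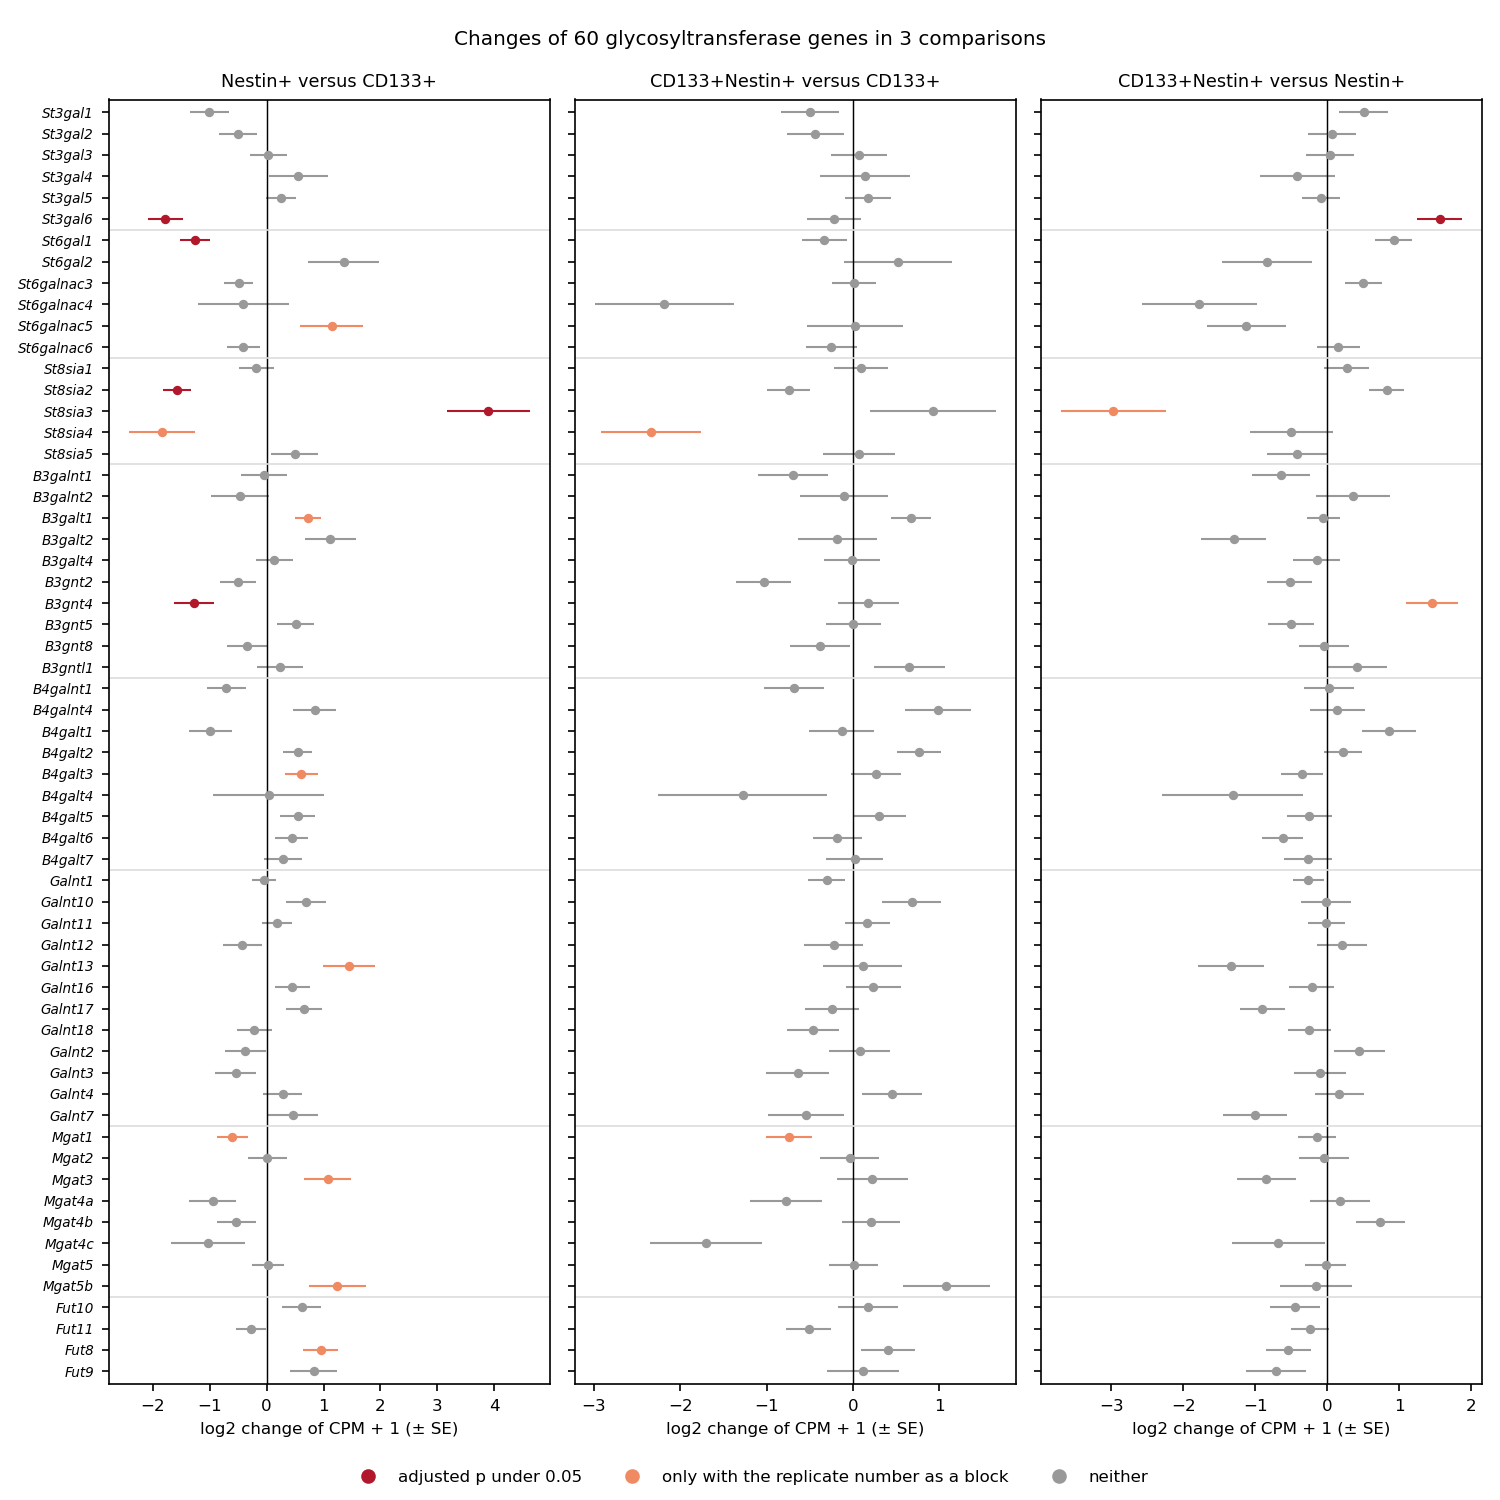
Difference of each of the 60 genes in each comparison, as log2(CPM + 1) of the first group minus that of the second, with bars of 1 SE. Red points passed an adjusted p of 0.05, orange points passed only with the sort number as a block, and grey points passed neither. The first panel, Nestin+ over CD133+, has 5 red points, the panel of CD133+Nestin+ over CD133+ has 0, and that of CD133+Nestin+ over Nestin+ has 1.

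The 250 bases before a start site that RefSeq lists are shown for 4 of the 5 genes that passed in Nestin+ against CD133+ cells. These 4 were lower in Nestin+ cells, and the window of St8sia3, which was higher, is not shown. The sequences are from RefSeq on GRCm38.p6, read 5′ to 3′ on the strand of the gene and ending at the base before the start. This start lies within 10 bases of the GENCODE gene start for St3gal6, St6gal1 and St8sia2 but 1978 bases before it for B3gnt4. They lie at chr5:123508232-123508481 (B3gnt4, plus strand), chr16:58524254-58524503 (St3gal6, minus strand, 1 of 2 start sites listed), chr16:23224490-23224739 (St6gal1, plus strand, 1 of 3 start sites listed) and chr7:74013683-74013932 (St8sia2, minus strand). Capitals mark matches on either strand to 4 motifs: the GC box GGGCGG, the CCAAT box CCAAT, the RFX motif GTTGCC and the forkhead core GTAAACA.
B3gnt4: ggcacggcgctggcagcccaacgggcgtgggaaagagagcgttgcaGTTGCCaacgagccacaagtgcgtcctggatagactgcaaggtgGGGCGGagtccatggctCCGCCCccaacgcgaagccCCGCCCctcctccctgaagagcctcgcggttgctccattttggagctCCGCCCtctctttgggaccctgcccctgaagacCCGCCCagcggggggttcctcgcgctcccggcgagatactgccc
St3gal6: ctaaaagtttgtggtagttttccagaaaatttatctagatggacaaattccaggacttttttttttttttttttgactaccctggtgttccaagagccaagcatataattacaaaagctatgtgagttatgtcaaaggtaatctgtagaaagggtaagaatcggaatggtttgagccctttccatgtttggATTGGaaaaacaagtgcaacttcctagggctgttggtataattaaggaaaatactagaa
St6gal1: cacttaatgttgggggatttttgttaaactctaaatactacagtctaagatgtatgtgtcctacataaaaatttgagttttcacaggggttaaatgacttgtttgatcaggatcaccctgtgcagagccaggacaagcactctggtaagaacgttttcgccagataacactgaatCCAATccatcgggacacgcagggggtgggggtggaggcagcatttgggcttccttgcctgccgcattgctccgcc
St8sia2: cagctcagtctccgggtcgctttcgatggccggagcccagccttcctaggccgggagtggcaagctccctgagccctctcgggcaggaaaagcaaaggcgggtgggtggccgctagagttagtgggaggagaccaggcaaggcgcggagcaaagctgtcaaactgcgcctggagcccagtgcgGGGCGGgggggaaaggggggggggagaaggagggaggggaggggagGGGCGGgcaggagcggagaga

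The 4 windows differed in makeup. Those of St8sia2 and B3gnt4 were rich in G and C (68.8% and 68% of bases) and held 2 and 5 GC boxes, while those of St6gal1 and St3gal6 had 47.2% and 34.8% G and C, no GC box and 1 CCAAT box each, at 75 and 59 bases before the start (positions -75 and -59). B3gnt4 alone of the 4 held an RFX motif, at -204, and no window held the forkhead core. No match overlaps another. Of 32851 windows of the same length in the table, 32.74% held a GC box, 33.85% a CCAAT box, 10.43% an RFX motif and 3.166% a forkhead core. Among 59 windows of 43 of the 60 genes the shares were 55.93%, 42.37%, 8.475% and 3.39%. These are matches of letters and say nothing of binding.

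Of the 6 alpha2,3-sialyltransferases, which cap galactose, St3gal6 was lower in Nestin+ cells than in both other populations. St3gal6 (chromosome 16, 58468125 to 58524243 on GRCm38) had 45.8, 78 and 65 CPM in CD133+Nestin+ cells, 16.8, 19.6 and 24.8 CPM in Nestin+ cells and 51.4, 104 and 69.3 CPM in CD133+ cells. All 3 Nestin+ libraries lay below all 6 others, while the CD133+Nestin+ and CD133+ libraries overlapped. The difference in Nestin+ against CD133+ cells was -1.78 ± 0.31 (log2 ± SE, adjusted p = 0.00346), and -1.55, -2.34 and -1.45 within the 3 sort numbers. Against Nestin+ cells, St3gal6 differed in CD133+Nestin+ cells by 1.56 ± 0.31 (adjusted p = 0.0208), higher within each sort number, and the adjusted p ranged from 0.0506 to 0.101 when any 1 of CD133+Nestin+ replicates 2 and 3 or of the 3 Nestin+ replicates was left out, at 0.0511 without CD133+Nestin+ replicate 2 (0.00374 with the block and without it). Between CD133+Nestin+ and CD133+ cells it differed by -0.22 ± 0.31 (adjusted p = 0.812).

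St3gal6 exons share 26% of their bases with Dcbld2 on the other strand, and whether strand was used in counting is not stated, but Dcbld2 itself was at 7.03 ± 2.15 CPM in CD133+Nestin+, 8.98 ± 3.42 CPM in Nestin+ and 8.94 ± 0.314 CPM in CD133+ cells, below St3gal6 in every population. The other 5 genes of the class passed in no comparison. St3gal1, which sialylates O-glycan cores, had 4.6 ± 1.83 CPM in CD133+Nestin+, 2.84 ± 0.802 CPM in Nestin+ and 6.61 ± 0.33 CPM in CD133+ cells, with Nestin+ and CD133+ libraries apart (adjusted p = 0.0864). St3gal5, the synthase of the ganglioside GM3, was close to even, at 17.1 ± 3.38, 18 ± 0.427 and 15.2 ± 3.17 CPM in CD133+Nestin+, Nestin+ and CD133+ cells. Summed over the 6 genes the level was 115 ± 10.2 CPM in CD133+Nestin+, 73.2 ± 4.39 CPM in Nestin+ and 128 ± 21.2 CPM in CD133+ cells, and St3gal6 made up much of that difference.

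Among the 6 alpha2,6-sialyltransferases, St6gal1, which caps N-glycans with alpha2,6-linked sialic acid, was lower in Nestin+ cells. St6gal1 (chromosome 16, 23224740 to 23360350) had 16.7, 19.6 and 20.8 CPM in CD133+Nestin+ cells, 9.61, 9.41 and 9.62 CPM in Nestin+ cells and 21.3, 31.6 and 20.8 CPM in CD133+ cells. The Nestin+ libraries were nearly identical and lay below all 6 others. St6gal1 differed by -1.25 ± 0.26 in Nestin+ against CD133+ cells (adjusted p = 0.00909, lower within all 3 sort numbers). CD133+Nestin+ cells differed from Nestin+ cells by 0.92 ± 0.26, with groups apart and an adjusted p of 0.1, or 0.0501 with the block.

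The remaining alpha2,6 enzymes passed no test without the block. St6galnac5, which sialylates gangliosides, had 10.1 ± 6.38 CPM in CD133+Nestin+, 23.1 ± 14.3 CPM in Nestin+ and 9.42 ± 4.72 CPM in CD133+ cells, with overlapping groups; in Nestin+ against CD133+ cells its adjusted p was 0.25, and 0.0456 with the block, where it was higher within each sort number. St6gal2, the second enzyme of the St6gal pair, had 11.1 ± 3.92 CPM in CD133+Nestin+, 21.5 ± 10.3 CPM in Nestin+ and 9.63 ± 6.98 CPM in CD133+ cells (adjusted p = 0.225 for Nestin+ against CD133+). St6galnac4 was at 0.0332 CPM in CD133+Nestin+ replicate 2, a single read, and at 6.85 CPM or more in the other 8 libraries.

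The 5 alpha2,8-sialyltransferases, which extend sialic acid with more sialic acid, held the widest differences of the family, and in opposite directions. St8sia2, the polysialyltransferase of the developing brain (chromosome 7, 73939119 to 74013690), had 62.1, 46.6 and 56.8 CPM in CD133+Nestin+ cells, 29.2, 26.4 and 36.7 CPM in Nestin+ cells and 98.1, 107 and 75.2 CPM in CD133+ cells. No library of one population overlapped with another, with Nestin+ lowest, CD133+Nestin+ between and CD133+ highest. St8sia2 was lower in Nestin+ than in CD133+ cells by a log2 difference of -1.57 ± 0.24 (adjusted p = 0.00172; -1.72, -1.99 and -1.01 within the sort numbers). The 2 steps through CD133+Nestin+ cells did not pass alone: -0.75 ± 0.24 against CD133+ cells (adjusted p = 0.188) and 0.83 ± 0.24 against Nestin+ cells (adjusted p = 0.117).

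St8sia3, which adds short chains of sialic acid to glycoproteins and gangliosides and is known for its expression in brain (chromosome 18, 64254359 to 64279611), ran the other way. It had 12, 0.0664 and 1.91 CPM in CD133+Nestin+ cells, 34.5, 29.1 and 17.1 CPM in Nestin+ cells and 1.27, 0.3 and 0.992 CPM in CD133+ cells. The Nestin+ libraries lay above all 6 others, and CD133+Nestin+ replicate 1 stood above both other libraries of its group, of which replicate 2 held only 2 reads' worth. In Nestin+ against CD133+ cells St8sia3 differed by 3.90 ± 0.73 (adjusted p = 0.00513), the largest difference of the 60 genes in any comparison on this scale, and by 3.97, 4.53 and 3.18 within the sort numbers. CD133+Nestin+ cells differed from Nestin+ cells by -2.97 ± 0.73, with an adjusted p of 0.0546, or 0.0145 with the block, and leaving out each library in turn gave -3.93 to -2.13. Without CD133+Nestin+ replicate 2 it was -2.13 ± 0.57, with an adjusted p of 0.0923, or 0.0124 with the block.

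St8sia4, the second polysialyltransferase (chromosome 1, 95587682 to 95667571), had 3, 0.0332 and 3.76 CPM in CD133+Nestin+ cells, 2.4, 3.88 and 2.34 CPM in Nestin+ cells and 6.39, 16.2 and 19.1 CPM in CD133+ cells. Both Nestin-reporter populations lay below all CD133+ libraries and overlapped with each other. The log2 difference against CD133+ cells was -1.84 ± 0.58 for Nestin+ cells (adjusted p = 0.0667, 0.0482 with the block) and -2.34 ± 0.58 for CD133+Nestin+ cells (adjusted p = 0.0674, 0.0476 with the block), of which the second includes replicate 2 at a single read; across fits leaving out each library in turn it ran from -2.79 to -1.65, and without replicate 2 the adjusted p was 0.0912, or 0.0402 with the block. St8sia1, the GD3 synthase that starts the b-series gangliosides, was even at 30 ± 5.28, 25.7 ± 9 and 28.2 ± 5.18 CPM in CD133+Nestin+, Nestin+ and CD133+ cells, and St8sia5 was at 6.77 ± 1.72, 9.76 ± 4.1 and 6.81 ± 3.42 CPM in the same order of populations.

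**Figure D3:**
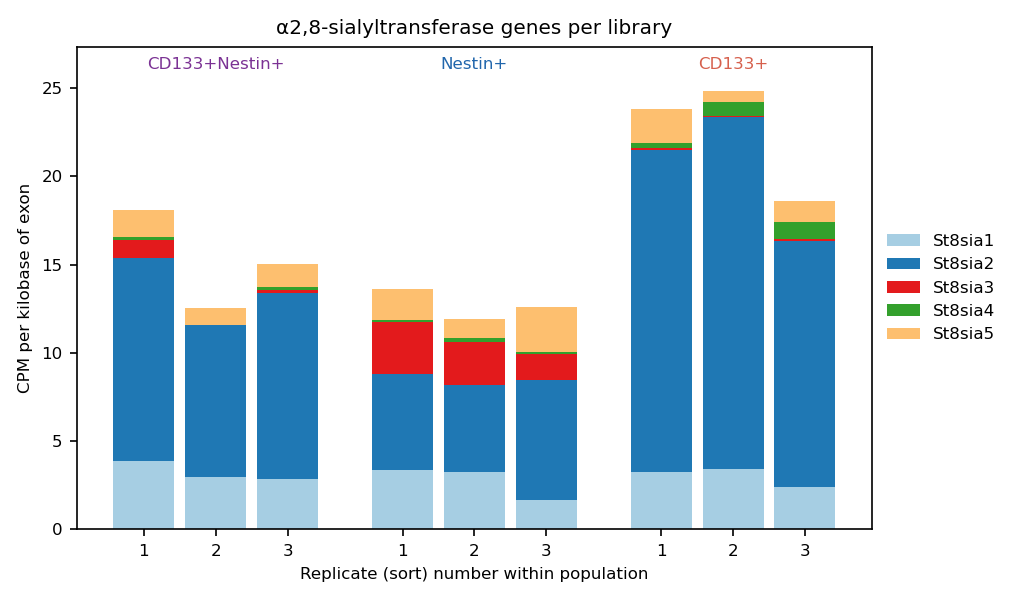
Level per kilobase of exon of the 5 alpha2,8-sialyltransferases, stacked for each library (CPM per kilobase on the vertical axis, starting at 0). St8sia2 forms the largest part of every bar, and St8sia3 is visible in the 3 Nestin+ libraries and in CD133+Nestin+ replicate 1.

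Per kilobase of exon, St8sia2 stayed the most abundant alpha2,8 enzyme in all 9 libraries, but the mix differed. It made up 67.7% ± 3.52 of the summed alpha2,8 level in CD133+Nestin+ cells, 45% ± 7.88 in Nestin+ cells and 77.3% ± 2.72 in CD133+ cells. St8sia3 made up 5.64%, 0.0453% and 1.09% in CD133+Nestin+ libraries, 21.7%, 20.9% and 11.6% in Nestin+ libraries and 0.455%, 0.103% and 0.456% in CD133+ libraries. St8sia4 stayed at 0.695% ± 0.627 in CD133+Nestin+, 1.14% ± 0.417 in Nestin+ and 3.23% ± 1.89 in CD133+ cells, so of the polysialyltransferase pair St8sia2 had the higher level per kilobase in every population.

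**Figure D4:**
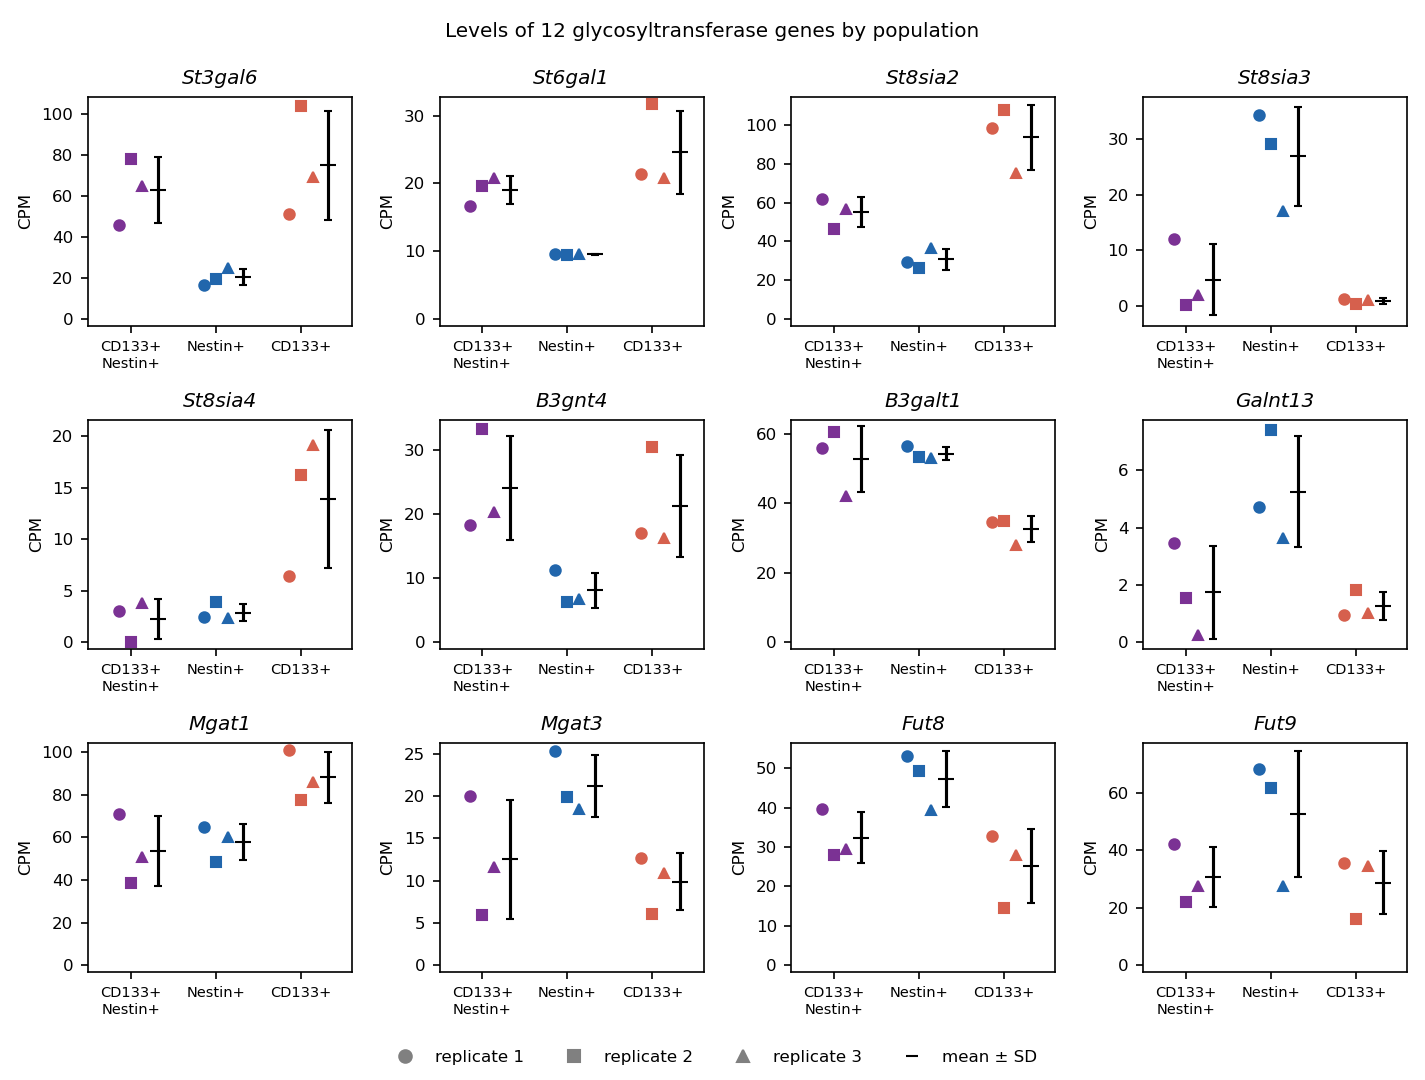
Level in CPM (linear axis) of 12 of the genes in each library, by population, with symbols for the replicate number and lines for the mean ± SD of 3 libraries. St3gal6, St6gal1, St8sia2 and B3gnt4 have their lowest mean in Nestin+ cells, and St8sia3 has its highest there.

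Among the 10 genes of the beta1,3 group, B3gnt4, which adds N-acetylglucosamine to galactose, was lower in Nestin+ cells. B3gnt4 (chromosome 5, 123510460 to 123511882) had 18.3, 33.3 and 20.3 CPM in CD133+Nestin+ cells, 11.3, 6.19 and 6.77 CPM in Nestin+ cells and 17, 30.4 and 16.2 CPM in CD133+ cells. Nestin+ libraries lay below all others, and replicate 2 was the highest library of both other populations. The difference was -1.28 ± 0.35 in Nestin+ against CD133+ cells (adjusted p = 0.039) and 1.46 ± 0.35 in CD133+Nestin+ against Nestin+ cells (adjusted p = 0.0537, 0.0279 with the block). Without CD133+Nestin+ replicate 2 the second difference was 1.20 ± 0.34, with an adjusted p of 0.113, or 0.0484 with the block. The call against CD133+ cells was lost without any of 6 of the 9 libraries (every library but CD133+Nestin+ replicates 1 and 2 and Nestin+ replicate 1), where the adjusted p reached at most 0.184, and under median centring (0.0804) and quantile normalization (0.0793).

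Of the exon bases of B3gnt4, 93.2% are also exon of Diablo on the other strand, so without knowledge of the counting the reads of the pair cannot be told apart. Diablo was at 123 ± 21 CPM in CD133+Nestin+, 102 ± 9.25 CPM in Nestin+ and 102 ± 12.8 CPM in CD133+ cells. B3galt1, which adds galactose in beta1,3 linkage, had 52.8 ± 9.53 CPM in CD133+Nestin+ cells, 54.3 ± 1.96 CPM in Nestin+ cells and 32.5 ± 3.87 CPM in CD133+ cells, with both Nestin-reporter populations apart from CD133+ cells. Its difference in Nestin+ against CD133+ cells was 0.73 ± 0.23, with an adjusted p of 0.0645, or 0.0209 with the block, and in CD133+Nestin+ against CD133+ cells 0.67 ± 0.23 (adjusted p = 0.211). B3gnt5, which starts lacto-series glycolipids, had 21.1 ± 5.62, 30.7 ± 9.09 and 21 ± 5.69 CPM in CD133+Nestin+, Nestin+ and CD133+ cells, and B3gnt2 averaged 1.48 CPM or less in each population and shares 58.6% of its exon bases with Gm28048 on the same strand. The class ran from -1.28 (B3gnt4) to 1.12 (B3galt2) in Nestin+ against CD133+ cells.

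No gene of the beta1,4 group passed a test without the block. B4galt3 had 63.5 ± 13.6 CPM in CD133+Nestin+, 83.6 ± 31.5 CPM in Nestin+ and 52.2 ± 6.01 CPM in CD133+ cells. In Nestin+ against CD133+ cells it differed by 0.61 ± 0.29 without the block (adjusted p = 0.24), higher within all 3 sort numbers. With the block the SE was 0.19 and the adjusted p 0.0494. B4galt1 had 38.5, 89.6 and 63.2 CPM in CD133+Nestin+, 24.7, 24.8 and 56.8 CPM in Nestin+ and 71.4, 69.2 and 58.1 CPM in CD133+ cells, so that Nestin+ replicates 1 and 2 were low and replicate 3 came close to the CD133+ range (adjusted p = 0.128 for Nestin+ against CD133+). B4galt4 was at 1.03 CPM in CD133+Nestin+ replicate 2 and between 30.9 and 56.9 CPM in every other library. B4galt2 had 34.9 ± 4.56, 30.4 ± 8.63 and 20.1 ± 2.4 CPM in CD133+Nestin+, Nestin+ and CD133+ cells and was above the CD133+ range in both Nestin-reporter populations, at adjusted p-values of 0.211 for CD133+Nestin+ and 0.24 for Nestin+ cells. The class ran from a log2 difference of -0.99 (B4galt1) to 0.84 (B4galnt4) in Nestin+ against CD133+ cells.

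The 12 Galnt genes likewise had no call without the block. Galnt13, which starts O-glycans and is known from neural tissue, had 3.46, 1.52 and 0.233 CPM in CD133+Nestin+ cells, 4.71, 7.4 and 3.64 CPM in Nestin+ cells and 0.942, 1.81 and 1.02 CPM in CD133+ cells. All Nestin+ libraries were above all others, by a log2 difference of 1.44 ± 0.46 against CD133+ cells with an adjusted p of 0.067, or 0.0254 with the block. The most abundant member, Galnt16, was at 116 ± 34.8, 132 ± 15.7 and 99.8 ± 36.3 CPM in CD133+Nestin+, Nestin+ and CD133+ cells, and Galnt1 at 36.6 ± 4 CPM in CD133+Nestin+, 44 ± 3.75 CPM in Nestin+ and 45.4 ± 5.17 CPM in CD133+ cells. Differences of the class in Nestin+ against CD133+ cells ran from -0.54 (Galnt3) to 1.44 (Galnt13). Galnt2 shares 90% of its exon bases with Gm20388 on the same strand, so its level, a mean of 10 to 13.5 CPM per population, is uncertain.

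Of the 8 Mgat genes, 3 were called with the block in Nestin+ against CD133+ cells. Mgat1, which adds the first N-acetylglucosamine of complex and hybrid N-glycans, had 71.1, 38.6 and 50.9 CPM in CD133+Nestin+ cells, 64.9, 48.6 and 60 CPM in Nestin+ cells and 101, 77.4 and 86 CPM in CD133+ cells. Both Nestin-reporter populations lay below every CD133+ library, by -0.74 ± 0.27 for CD133+Nestin+ cells (adjusted p = 0.245, 0.0478 with the block) and -0.60 ± 0.27 for Nestin+ cells (adjusted p = 0.204, 0.0441 with the block). The blocked call in CD133+Nestin+ against CD133+ cells was lost without CD133+Nestin+ replicate 2, at an adjusted p of 0.0721. Mgat3, which adds the bisecting N-acetylglucosamine, had 12.5 ± 7.08, 21.2 ± 3.62 and 9.85 ± 3.38 CPM in CD133+Nestin+, Nestin+ and CD133+ cells, with a log2 difference of 1.07 ± 0.41 in Nestin+ against CD133+ cells (adjusted p = 0.134, 0.0275 with the block). Mgat5b, the brain-enriched branching enzyme that acts on O-mannosyl glycans, had 3.91 ± 3.73, 3.88 ± 2.12 and 0.998 ± 0.538 CPM in CD133+Nestin+, Nestin+ and CD133+ cells, with 1.24 ± 0.50 in Nestin+ against CD133+ cells (adjusted p = 0.158, 0.021 with the block), while its relative Mgat5 was even at 38.1 ± 3.14 CPM in CD133+Nestin+, 39.2 ± 8.57 CPM in Nestin+ and 39.3 ± 13.8 CPM in CD133+ cells. The class ran from -1.03 (Mgat4c) to 1.24 (Mgat5b) in Nestin+ against CD133+ cells.

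The 4 fucosyltransferases had their highest sum in Nestin+ cells, at 108 ± 26.9 CPM in CD133+Nestin+, 156 ± 29.8 CPM in Nestin+ and 101 ± 22.9 CPM in CD133+ cells. Fut8, which adds the core fucose of N-glycans, had 39.8, 28 and 29.4 CPM in CD133+Nestin+ cells, 53.2, 49.4 and 39.4 CPM in Nestin+ cells and 32.8, 14.6 and 28 CPM in CD133+ cells. Nestin+ and CD133+ libraries did not overlap for Fut8, which differed by 0.95 ± 0.31 (adjusted p = 0.0791, 0.0256 with the block).

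Fut9, the Lewis X synthase of neural progenitors (chromosome 4, 25609332 to 25800244), had 42.2, 22 and 27.5 CPM in CD133+Nestin+ cells, 68.4, 61.9 and 27.7 CPM in Nestin+ cells and 35.6, 16.1 and 34.6 CPM in CD133+ cells. The populations overlapped, because Nestin+ replicate 3 was as low as the libraries of the other 2 populations. The difference in Nestin+ against CD133+ cells was 0.83 ± 0.42 (adjusted p = 0.272, 0.135 with the block), and it was -0.31 within sort number 3. Fut10 had 28.1 ± 12.4, 36.7 ± 8.55 and 23.4 ± 4.13 CPM and Fut11 16.7 ± 3.45, 19.7 ± 2.51 and 24.1 ± 3.88 CPM in CD133+Nestin+, Nestin+ and CD133+ cells, with no call in any comparison.

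Other genes of the same pathways were read from the same fit. The background in Nestin+ against CD133+ cells was 2.45% of all tested genes higher and 9.42% lower, or 6.06% and 13.1% with the block. Counts in these short lists were not tested against it. In Nestin+ against CD133+ cells, 3 of 12 genes for sialic acid supply, export and removal were lower and 0 higher (median log2 difference -0.34, against -0.02 over all genes). They are the sialidases Neu2, at 0.668 CPM in Nestin+ and 14.9 CPM in CD133+ cells, and Neu3, at 2.78 CPM in Nestin+ and 16.4 CPM in CD133+ cells, and the sialic acid lyase Npl, at 14.8 CPM in Nestin+ and 59 CPM in CD133+ cells. These genes remove or degrade sialic acid. Of 4 mucin core genes 2 were lower, the branching enzymes Gcnt1 (2.65 CPM in Nestin+ and 56.8 CPM in CD133+ cells, adjusted p = 0.000102) and Gcnt2 (6.41 CPM in Nestin+ and 33.3 CPM in CD133+ cells). Of 12 genes of N-glycan mannose trimming 2 were lower, Man1c1 (3.21 CPM in Nestin+ and 15.1 CPM in CD133+ cells) and Man2a1 (3.03 CPM in Nestin+ and 9.88 CPM in CD133+ cells), Golgi mannosidases that trim the N-glycan before and after the step of Mgat1.

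Among genes of glycosphingolipid synthesis and breakdown, Gal3st1, the sulfatide synthase, was higher in Nestin+ cells at 2.28 CPM against 0.159 CPM in CD133+ cells, and Galc, a lysosomal hydrolase, was lower at 36.4 CPM in Nestin+ and 67.8 CPM in CD133+ cells. Of 10 carriers and readers of these glycans 5 were lower and 0 higher, beside 9.42% and 2.45% of all tested genes. Among the 5 were Lgals3, a galactose-binding lectin, at 3.94 CPM in Nestin+ and 59.8 CPM in CD133+ cells, and the sialic acid receptors Cd33 (0.463 CPM in Nestin+ and 16.8 CPM in CD133+ cells) and Siglece (0.258 CPM in Nestin+ and 6.36 CPM in CD133+ cells). Ncam1, the carrier of polysialic acid, had 1816 CPM in Nestin+ and 953.5 CPM in CD133+ cells (log2 difference 0.90 ± 0.29, adjusted p = 0.0676, 0.0123 with the block). None of 10 fucose supply genes, 12 genes of UDP-sugar supply and 13 genes of O-mannose and other protein glycosyltransferases were called in this comparison without the block. With the block 1, 2 and 1 of these were called, all lower in Nestin+ cells: Fuca2 (adjusted p = 0.0266), Galk1 (0.023) and Slc35a2 (0.0401), and Pomt1 (0.0262). The block also added Casd1 (0.0226) and Man1a (0.044) as lower to the sialic acid and mannose trimming lists.

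Only 3 of the 10 carriers and readers were lower in CD133+Nestin+ than in CD133+ cells, Siglech (2.42 CPM in CD133+Nestin+ and 34.7 CPM in CD133+ cells), Cd33 (1.32 CPM in CD133+Nestin+ and 16.8 CPM in CD133+ cells) and Lgals1 (9.05 CPM in CD133+Nestin+ and 47 CPM in CD133+ cells), and no other pathway list held a call without the block, which added Neu2, Npl, Man1a, Man1c1 and Gcnt1 as lower, at adjusted p-values of 0.0142 to 0.0419. One gene each of the sialic acid, mucin core and carrier lists was higher in CD133+Nestin+ than in Nestin+ cells: Neu2 (6.14 CPM in CD133+Nestin+ and 0.668 CPM in Nestin+ cells), Gcnt1 (18.2 CPM in CD133+Nestin+ and 2.65 CPM in Nestin+ cells) and Lgals3 (32 CPM in CD133+Nestin+ and 3.94 CPM in Nestin+ cells). The block added Casd1 as higher (adjusted p = 0.0312) and Gal3st1 as lower (0.0322). Of all tested genes 2.12% were lower in CD133+Nestin+ than in CD133+ cells, or 3.69% with the block. Against Nestin+ cells 2.87% were higher and 0.254% lower, or 4.97% and 1.12% with the block. The means of Neu2, Gcnt1 and Lgals3 were lowest in Nestin+ cells, intermediate in CD133+Nestin+ cells and highest in CD133+ cells, the order of St8sia2.

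Markers of cell types that the gates could hold moved with the same comparisons. Summed over the list, the 9 oligodendrocyte precursor markers were at 383 to 1006 CPM in CD133+Nestin+, 1401 to 1871 CPM in Nestin+ and 121 to 296 CPM in CD133+ libraries, and 7 of them were higher in Nestin+ than in CD133+ cells. The 10 ependymal and motile cilia markers were at 1399 to 1837 CPM in CD133+Nestin+, 294 to 373 CPM in Nestin+ and 1570 to 3134 CPM in CD133+ libraries, and all 10 passed as lower in Nestin+ against CD133+ cells. Microglia and macrophage markers reached 39.9 to 307 CPM in CD133+Nestin+, 34.3 to 102 CPM in Nestin+ and 899 to 2618 CPM in CD133+ libraries, with all 10 lower in both Nestin-reporter populations, and the 5 endothelial markers measured 27 to 44.6, 15.4 to 25.5 and 451 to 887 CPM in the same order of populations. The 9 neuronal markers were at 284 to 362, 467 to 599 and 201 to 276 CPM, the 7 mural and fibroblast markers at 107 to 175, 71.3 to 103 and 727 to 1458 CPM, and the 10 radial glia and tanycyte markers at 3717 to 9129, 7806 to 13506 and 2046 to 6336 CPM in the same order of populations. In Nestin+ against CD133+ cells 4 of the 9 neuronal markers passed as higher and 5 of the 7 mural and fibroblast markers as lower. Over all tested genes 2.45% were higher and 9.42% lower. Map2 was the largest part of the neuronal sum in every library, while Rbfox3 was lowest in Nestin+ libraries. Of the mural list, Tagln was lower in CD133+ than in CD133+Nestin+ libraries, and Acta2 overlapped between populations. Slc1a3 and Fabp7 made up most of the radial glia and tanycyte sum. Of that list 5 passed as higher and 1 as lower in Nestin+ against CD133+ cells, and Pax6 was highest in CD133+ libraries. The list includes Nes, whose promoter drives the reporter used for sorting, so its level follows the gate and is no separate evidence of a cell type. The 3 choroid plexus markers summed to at most 61.8 CPM, and the 5 erythroid markers to 60.6 to 118, 24.4 to 344 and 783 to 1537 CPM, again in that order. No measured marker of these 9 lists was at 0 in any library.

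**Figure D5:**
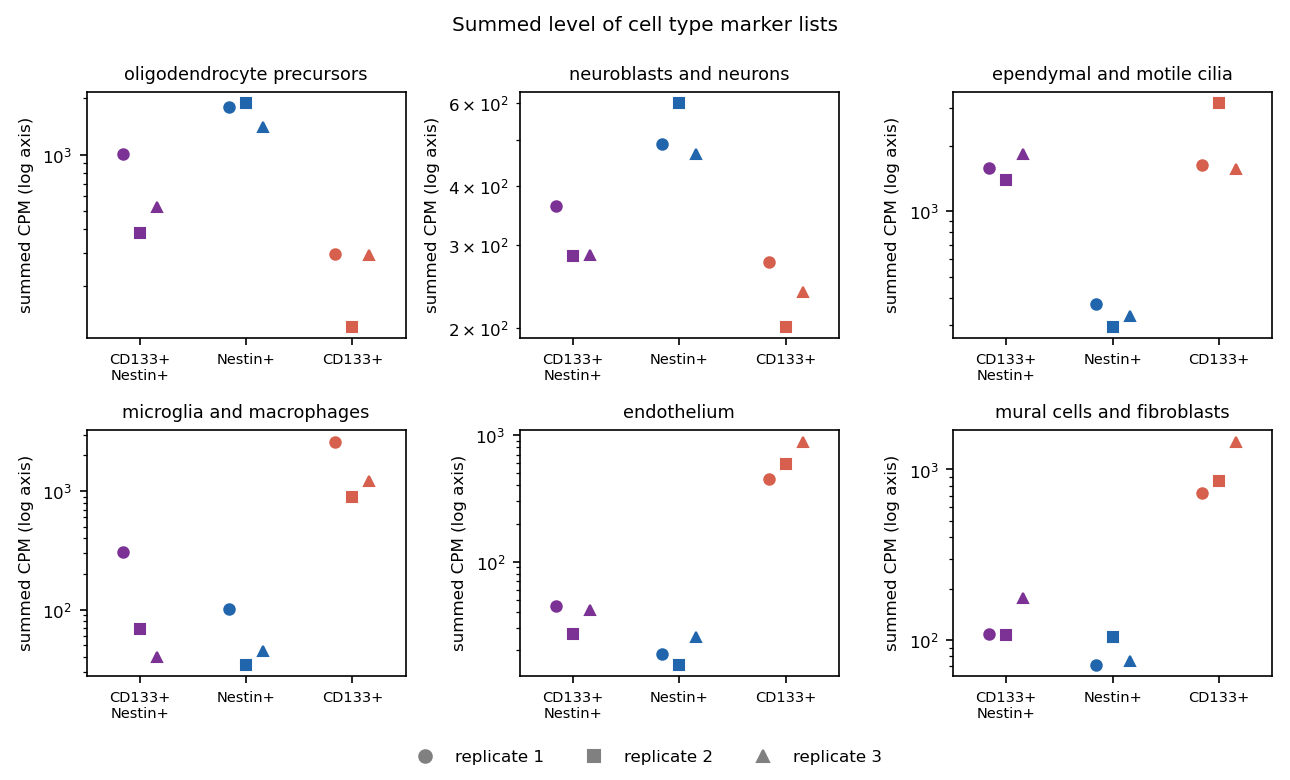
Summed level of 6 lists of cell type markers in each library, in CPM on a log axis, by population, with symbols for the replicate number. The sums of oligodendrocyte precursor and neuronal markers are highest in Nestin+ libraries and that of ependymal markers is lowest there. The sums of microglial, endothelial and mural markers are highest in CD133+ libraries. Single markers of the neuronal and mural lists differ from their sums.

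Within populations, some enzymes ranked as these sums did. St8sia3 and the oligodendrocyte precursor sum were both highest among CD133+Nestin+ libraries in replicate 1, at 12 CPM and 1006 CPM, against 0.0664 and 1.91 CPM and 383 and 526 CPM in replicates 2 and 3. Among CD133+ libraries both were also highest in replicate 1, at 1.27 CPM and 296 CPM, but only just above replicate 3, at 0.992 CPM and 294 CPM. Among Nestin+ libraries both were lowest in replicate 3, but their highest libraries differed. St8sia3 was highest in replicate 1 (34.5 CPM, against 29.1 CPM in replicate 2) and the sum in replicate 2 (1871 CPM, against 1791 CPM in replicate 1). St3gal6, St6gal1, St8sia2 and B3gnt4 were each highest among CD133+ libraries in replicate 2, where the ependymal sum was 3134 CPM against 1630 and 1570 CPM in replicates 1 and 3. Among CD133+Nestin+ libraries the 4 genes were split. The ependymal sum was lowest in replicate 2, at 1399 CPM against 1582 and 1837 CPM in replicates 1 and 3. St3gal6 and B3gnt4 were highest in replicate 2, against the sum, while St8sia2 was lowest there, as the sum was. St6gal1 was highest in replicate 3, as the sum was, but lowest in replicate 1. St8sia4 was at 6.39, 16.2 and 19.1 CPM in CD133+ replicates 1, 2 and 3. The endothelial sum (451, 591 and 887 CPM) and the mural and fibroblast sum (727, 854 and 1458 CPM) ranked in the same way. The microglial sum (2618, 899 and 1217 CPM) and the erythroid sum (1537, 783 and 1060 CPM) did not, and were highest in replicate 1, where St8sia4 was lowest. The part of these cell types in the differences of the enzymes was not tested.

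In the authors' deposited table of comparisons, 4 of the 60 genes were below a step-up false discovery rate of 0.05 between Nestin+ and CD133+ cells (B3gnt4, St3gal6, St6gal1 and St8sia2; 9.07% of all genes). The authors' deposited table gave St8sia3 a ratio of 31.5 in Nestin+ over CD133+ cells at a rate of 0.0633. Between Nestin+ and CD133+Nestin+ cells the authors' deposited table listed only St3gal6 of the 60 (2.59% of all genes), with a ratio of 0.325 in Nestin+ over CD133+Nestin+ cells, and between CD133+ and CD133+Nestin+ cells it listed 0 of the 60 (0.955% of all genes). It rests on the same libraries and is not independent of the fit above.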

How the data were processed

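Total RNA of 9 libraries, 3 per population, was read on an Illumina HiSeq, per the labels' protocols. The submitters' processing notes give the mm10 build and the tools STAR 2.5.3a, bcl2fastq, limma and Partek 8.0. The sources used here do not give how reads were counted or whether by strand. The deposited gene table states no unit; the authors' values were read as CPM plus 0.0001, since values between 0.01 and 1 CPM lay on steps, of which 45.5% to 56.2% were whole within 0.02 reads. Reads could therefore not be recovered, which left no basis for a count test. CPM of the listed genes added up to 65.9% to 87.6% of the total that CPM are scaled to. The authors' second deposited table gives, per the file headers, the ratio of each pair of groups with its p-value and step-up FDR.

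Values were transformed to log2(CPM + 1), keeping the 16143 genes that reached 1 CPM in 3 or more libraries. One limma fit (3.58.1, R 4.3.3) held the 3 group means, its variances moderated with a trend and robustly (residual df 6, prior df 4.93 at the median), and p-values were adjusted over all genes by the Benjamini-Hochberg method. Fold changes on this scale understate the change of low genes. The replicate number is the sort number in the labels, which is equal to the passage number, so the block stands for both. After subtracting group means, same-numbered libraries (9 pairs) had correlations of 0.204 to 0.730 across genes and differently numbered ones (18 pairs) of -0.527 to 0.314. The numbers were read as pairing the samples on this ground, and the blocked fit is given where it changes a call of the 60 enzymes or of a named pathway gene. Alternatives tried were the block, quantile normalization, median centring, a pseudocount of 0.1, filters of 5 CPM or none, plain variance moderation, a fit of the 6 libraries compared, and each library left out. The block without CD133+Nestin+ replicate 2 was chosen after seeing the data. The fit was tested on simulated data.

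Positions and exon lengths are from GENCODE M21 on GRCm38, the build of mm10, in which all 60 genes were found, on 18 chromosomes. Exons of 25 of them share bases with another gene, at least 25% of bases in 5 (B3gnt4, Galnt2, B3gnt2, B4galt2 and St3gal6). The genes and the pathway and marker lists were chosen with earlier results of these data known. Each of the 60 could be named; values per library were given for those called, for St8sia2, St8sia4 and Fut9, and for others chosen after their values were seen, and up to 3 called genes of smallest p per pathway list were named, with Ncam1 added after its values were seen. One result of a pathway list is not reported here. Python 3.11.15 and matplotlib 3.10.9 drew the figures.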

Additional observations from a re-analysis of the deposited data

How the results depend on the processing

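No difference of any of the 60 genes that was called changed its direction under an alternative. St8sia2, St3gal6, St6gal1 and St8sia3 stayed past the threshold in Nestin+ against CD133+ cells in all 9 fits that left out 1 library and in the 8 other alternatives other than the block without CD133+Nestin+ replicate 2. The number of the 60 genes called, 5 in Nestin+ against CD133+ cells, was 14 with the replicate number as a block, 12 with only the 6 libraries compared and 26 with the block and without CD133+Nestin+ replicate 2, where 19.2%, 16.2% and 30.6% of all genes were called; leaving out 1 library gave 4 to 11, with 11 without CD133+Nestin+ replicate 2. In CD133+Nestin+ against CD133+ cells it was 0, and 2 with the block, 2 with the block and without CD133+Nestin+ replicate 2 (5.06% of all genes), and 0 to 2 leaving out 1 library, with 2 without CD133+Nestin+ replicate 1. In CD133+Nestin+ against Nestin+ cells it was 1, and 3 with the block, 2 with a filter of 5 CPM, with median centring and with quantile normalization, 5 with the block and without CD133+Nestin+ replicate 2 (8.26% of all genes), and 0 to 4 leaving out 1 library: 4 without CD133+Nestin+ replicate 1, 2 without CD133+ replicate 2, and 0 without any of CD133+Nestin+ replicates 2 and 3 or Nestin+ replicates 1 to 3. The cause of these moves was not tested.

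Over all genes, median centring moved the median log2 difference by 0.135 in Nestin+ against CD133+ cells and by 0.128 in CD133+Nestin+ against CD133+ cells, and quantile normalization by 0.148 and 0.119. In Nestin+ against CD133+ cells 395 of 1915 called genes were higher, 587 of 1887 with median centring and 696 of 2066 with quantile normalization; of the 60 enzymes 4 were then called higher and 3 lower with quantile normalization, and 1 higher and 3 lower with median centring. Over all genes the block called 3094, 776 and 983 genes in Nestin+ against CD133+, CD133+Nestin+ against CD133+ and CD133+Nestin+ against Nestin+ cells, where 1915, 390 and 505 were called without it. Levels at or below 3 reads, 0.0857 to 0.103 CPM, limit the genes listed above in CD133+Nestin+ replicate 2, and this covers counting error only.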
